A study of Homo sapiens with 4 samples.

Results

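The 10 rows described here form 5 pairs of genes that lie on opposite strands and share exonic bases. In each pair 1 gene acts in mitosis or chromosome condensation and the other faces it: HMMR with HMMR-AS1, CKAP2L with NT5DC4, CDC25C with FAM53C, CENPO with ADCY3, and SMC4 with TRIM59. They were chosen by name from a count table of 59385 rows, with their counts in the same libraries already known, so their differences between groups are given as a description and carry no p-value of their own. RNA sequencing was done on C4-2 cells, an epithelial line of human prostate cancer that can grow when androgen is withdrawn. Libraries labelled siEZH2 (n = 2) came from cells given a small interfering RNA against EZH2, and those labelled siCTRL (n = 2) from cells given a control one. EZH2 is the histone methyltransferase of Polycomb repressive complex 2. All 4 libraries came from the same line under the same culture conditions, the labels name no other treatment or time point, and nothing in them tells whether replicates came from separate cultures.

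Condensin is a ring-shaped complex that compacts chromosomes for division, and SMC4 is 1 of its core ATPases. The kinetochore joins chromosomes to spindle microtubules, and CENPO belongs to its inner layer at the centromere. HMMR and CKAP2L bind microtubules of the mitotic spindle, and CDC25C is the phosphatase that removes inhibitory phosphates from CDK1 as cells enter mitosis. Transcripts of such genes accumulate in dividing cells, mostly in G2 and M phase. Of the facing genes, ADCY3 encodes an adenylyl cyclase that makes cyclic AMP and is known from olfactory neurons and primary cilia, TRIM59 a tripartite motif protein of the ubiquitin ligase family, and NT5DC4 a protein with a nucleotidase domain. HMMR-AS1 is a noncoding antisense transcript.

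The labels' protocols name a stranded library kit, and no source used here gives the strand setting of the counting. The mitochondrial genes give a measure of it: MT-ND6, the light-strand protein gene, held 29501 and 41158 counts in the siEZH2 libraries and 53497 and 38229 in the siCTRL libraries, while MT-CO1 on the heavy strand held 1564 and 1789 in the siEZH2 libraries and 3215 and 1552 in the siCTRL libraries. In most human cells the heavy-strand genes give the more abundant messengers, the reverse of the order of these counts. Whether the rows hold reads from the strand opposite to their gene was not tested. Reads from a gene and from its antisense partner therefore cannot be assigned with certainty to either row, and every value below is the count under a row, not a level of that gene's messenger RNA.

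Of the pairs, 4 meet tail to tail and 1 meets head to head. Positions are those of GENCODE release 29 on GRCh38, with exons joined over all isoforms. HMMR (chromosome 5, 163460203 to 163491945, plus strand) and HMMR-AS1 (163483065 to 163494058, minus strand) share only 113 exonic bases, all of them in coding exons of HMMR. Of the 957 bases of HMMR-AS1, 228 lie in introns of HMMR and 616 beyond its end. CKAP2L (chromosome 2, 112736607 to 112764677, minus strand) and NT5DC4 (112721486 to 112742879, plus strand) share 474 bases in 2 blocks. CDC25C (chromosome 5, 138285265 to 138338355, minus strand) and FAM53C (138331935 to 138349729, plus strand) are the head-to-head pair and share 293 bases in 1 block, none of it coding in either gene. CENPO (chromosome 2, 24793136 to 24822376, plus strand) and ADCY3 (24819169 to 24919839, minus strand) share 1488 bases in 3 blocks, which include 497 coding bases of ADCY3. SMC4 (chromosome 3, 160399274 to 160434962, plus strand) and TRIM59 (160432445 to 160485773, minus strand) share 1561 bases in 3 blocks, which include 405 coding bases of SMC4; the main isoforms of these genes share 0 bases. SMC4 also shares 607 bases with IFT80, an intraflagellar transport gene on the other strand, and CENPO shares 247 with PTRHD1. In this release the shared part is a minority of the exonic bases of every gene, from 2.87% for HMMR to 27.0% for CENPO. Exonic length in this release equals the deposited row length for HMMR-AS1, NT5DC4, FAM53C and CENPO only. For ADCY3, for example, it is 6058 bases against a row length of 6456. The shared bases of the counted rows may therefore differ from those given here.

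**Figure D1:**
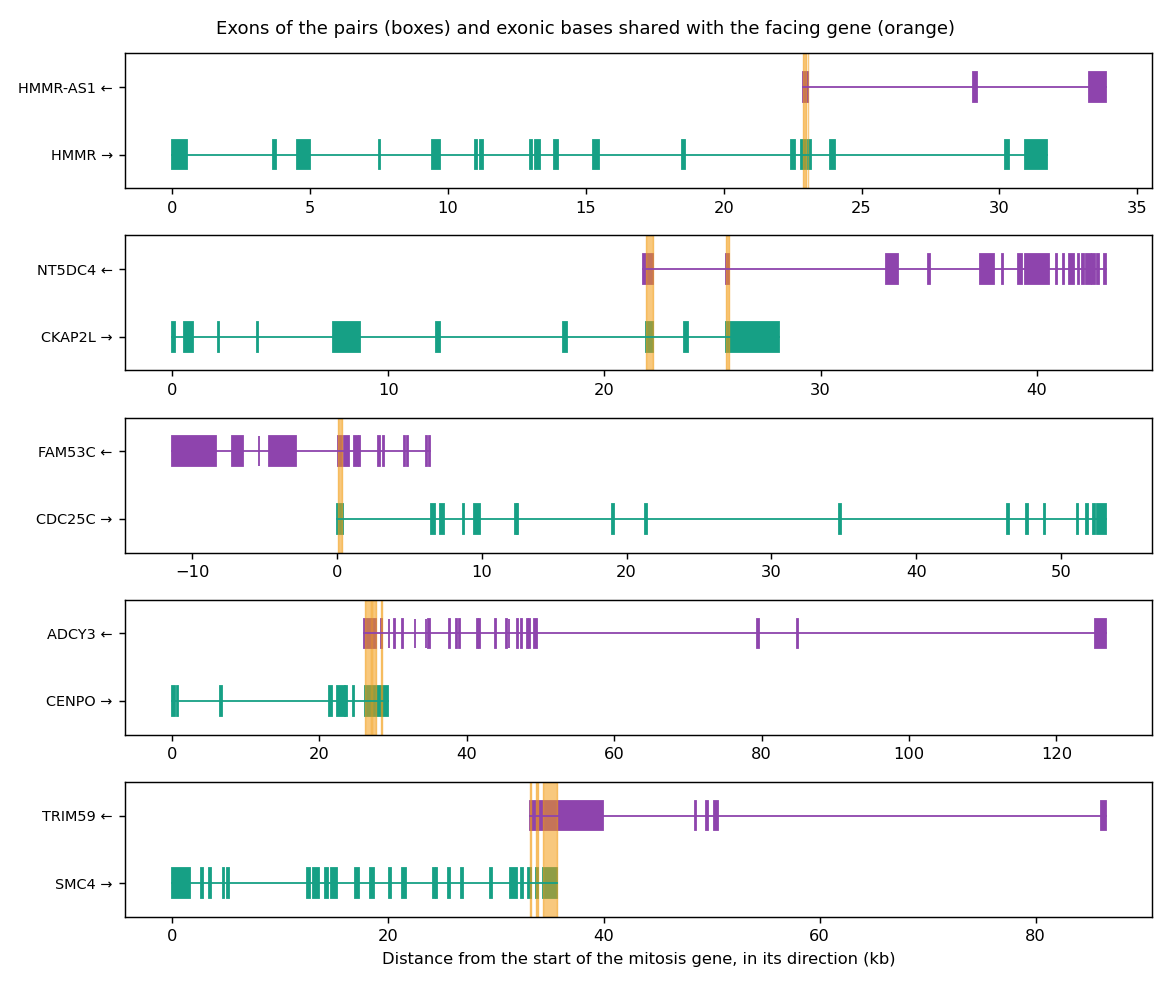
Exons of each pair along the genome, with distance in kb from the start of the mitosis gene in its own direction; boxes are exons, the facing gene is above, and orange bands mark exonic bases of both genes. The bands cover 113 bases for HMMR and 1561 for SMC4, in the later part of the mitosis gene except for CDC25C, where they lie at its start.

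A promoter feature separates the mitosis genes from the facing genes among these 10. The rows were not chosen by it, but a choice of genes by their role in mitosis is not independent of it. The letters TTTGAA form the core of the cell cycle genes homology region, an element of many G2 and M phase promoters that MuvB complexes are known to bind. RefSeq promoter windows on GRCh38.p14, from 250 bases before to 50 after each annotated start, were searched on both strands, and all 10 genes had at least 1 window. TTTGAA was present for 5 of 5 mitosis genes and 0 of 5 facing genes, against 18.2% of 27305 genes. Among the 128 other genes of the mitosis lists described below that had a window, 59 held it (46.1%). The 30 bases around the match nearest a start are printed to show how differently these letters sit in the 5 genes, each on the strand of its gene with the match in capitals.
HMMR: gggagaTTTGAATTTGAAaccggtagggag
CKAP2L: acaggcgcggcgTTTGAAgaaaaactgtca
CDC25C: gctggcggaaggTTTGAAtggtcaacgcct
CENPO: gaccggttggtttggtTTTGAAgacgtgga
SMC4: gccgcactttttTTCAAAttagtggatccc
The HMMR stretch (chr5:163460598-163460627, plus strand) holds 2 adjoining matches whose first letters lie 28 and 22 bases before the start. That of CKAP2L (chr2:112764609-112764638, minus strand) has its match 17 bases before the start, with a further one 86 bases before it in the reverse direction. That of CDC25C (chr5:138331817-138331846, minus strand) lies 30 bases before 1 of the annotated starts. In CENPO (chr2:24793445-24793474, plus strand) the match lies 36 bases after the start, and in SMC4 (chr3:160399563-160399592, plus strand) it reads in the reverse direction 75 bases before it. All 5 stretches fall within exons of at least 1 gene in GENCODE release 29.

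The other letters searched did not separate the genes. CCAAT was present for 3 of 5 mitosis and 3 of 5 facing genes, against 39.7% of all genes, with 5 sites in the HMMR window alone. TTTAAA, a variant of the same element, and GGCGGGAA, a form of the E2F site, were present for 0 of 5 and 0 of 5, against 14.5% and 3.79% of all genes. Other E2F forms were the shorter GCGGGAA, which overlaps GGCGGGAA and was found for CDC25C and ADCY3 (7.82% of all genes), and TTTGGCGC and TTTCCCGC, found for none of the 10. A match of letters is a description of these windows and not a bound site.

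Total counts ran from 6162123 to 6362561 in the siEZH2 libraries and from 6818482 to 6867542 in the siCTRL libraries. Counts under EZH2 were 60 and 131 in the libraries labelled siEZH2 and 39 and 59 in those labelled siCTRL, so the target's row was not lower in the libraries labelled siEZH2 and the labels could not be checked by it. Of 10 luminal prostate markers all had counts, with summed levels of 1531 to 3315 CPM (counts scaled to library size) in the siEZH2 libraries and 3507 to 4711 in the siCTRL libraries. Most of this was KRT8, with 20476 of 23203 and 10048 of 12380 deposited counts in the siEZH2 libraries. In the siCTRL libraries KRT8 held 19289 of 22629 and 18784 of 22346. The 13 markers of blood, endothelial, stromal, basal and neuroendocrine cells together held 417 and 512 counts in the siEZH2 libraries and 117 and 316 in the siCTRL libraries. CHGA was at 0 in 1 library of each group, and the part of either list in the results below was not tested. A background for the rows below was read from 405 olfactory receptor genes, which epithelium hardly uses: per kb of their rows it was 4.64 and 6.27 counts in the siEZH2 libraries and 1.30 and 3.14 in the siCTRL libraries.

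Counts under the facing rows were lower in the siEZH2 libraries in all 5 pairs, and those under the mitosis rows differed less. Library sizes were scaled by edgeR's trimmed mean method over all tested rows unless another scaling is named. Log2 fold changes of siEZH2 over siCTRL ran from -1.61 to -1.27 over the 5 facing rows, with a median of -1.32, and from -1.06 to 0.49 over the 5 mitosis rows, with a median of -0.66. All 10 rows passed the filter on low counts. Negative values were found for 9 of the 10 rows and for 43.3% of all 24431 tested rows, whose median was 0.22. Among rows of 100 to 200, 200 to 1000 and 1000 counts or more, the classes of 7 of the 10 rows, the share was 76.1%, 95.5% and 98.3%. With edgeR's quasi-likelihood test and Benjamini-Hochberg adjustment at 0.05, 0 of the 10 rows were called, as were 0% of all tested rows in either direction. Before adjustment, 2083 higher and 1932 lower rows had a p under 0.05. DESeq2 gave an adjusted p to 5011 rows, each with a mean of at least 77.25 counts, and called 17.1% of these lower. It placed the 5 facing rows past its threshold, together with 0 of the 3 mitosis rows it could call; HMMR and CKAP2L had too few counts for an adjusted p. With limma-voom ADCY3 and TRIM59 passed, against 1.37% of all rows called lower. The members were chosen with their counts known, so these calls describe them and are no test of them or of facing against mitosis rows. In bulk RNA, a change in the number of cells in mitosis and one in RNA per such cell cannot be told apart. Neither was tested, nor was the part of background in these values, which also moved with scaling.

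**Figure D2:**
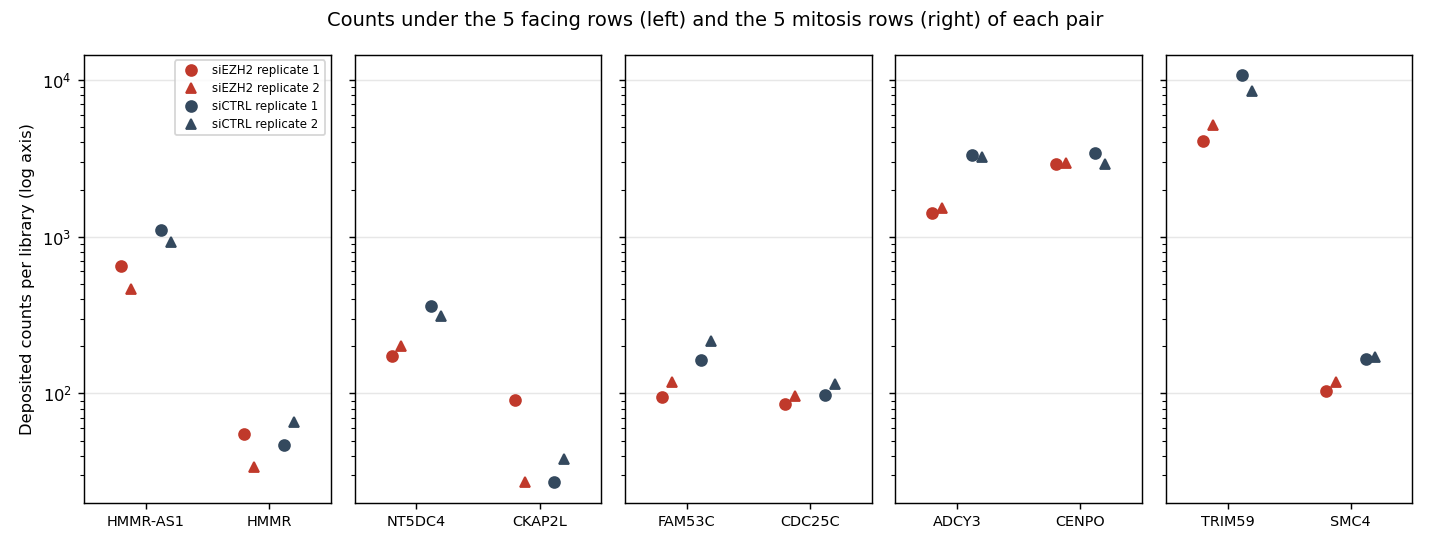
Deposited counts of each row in each library on a log axis, with 1 panel per pair, the facing row at left and the mitosis row at right; each point is 1 library. The siEZH2 points of the 5 facing rows lie below the siCTRL points, while those of HMMR, CKAP2L and CENPO overlap them.

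Of the spindle genes, HMMR had few counts under its row while the row facing it was well covered. HMMR held 55 and 34 counts in the siEZH2 libraries and 47 and 66 in the siCTRL libraries. These counts overlap, and after scaling the levels were 6.03 ± 2.58 CPM in siEZH2 and 10.1 ± 0.405 CPM in siCTRL libraries (SD, n = 2 each), and the log2 fold change was -0.74 ± 0.57 (SE). HMMR-AS1 held 648 and 462 counts in the siEZH2 libraries, against 1098 and 923 in the siCTRL libraries. Its siEZH2 libraries were both below the siCTRL libraries, at 74.9 ± 25.1 against 187 ± 59.2 CPM (SD, n = 2 each), and the log2 fold change was -1.32 ± 0.43 (SE). Per kb HMMR-AS1 averaged 818 counts over the 4 libraries and HMMR 12.8. HMMR stood at 3.02 and 1.38 times the olfactory receptor background of the same library in the siEZH2 libraries and at 9.16 and 5.34 times in the siCTRL libraries, while HMMR-AS1 stood at 77.0 times or more in each.

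CKAP2L was the only 1 of the 10 rows with a positive fold change, and 1 library set its sign. It held 91 and 27 counts in the siEZH2 libraries and 27 and 38 in the siCTRL libraries, so that siEZH2 replicate 1 stood above the other 3. Its log2 fold change of 0.49 (standard error 0.66) became -0.88 without that library and 1.14 without siEZH2 replicate 2. NT5DC4 held 173 and 202 counts in the siEZH2 libraries, against 359 and 313 in the siCTRL libraries. Its groups did not overlap, at 24.8 ± 0.186 against 61.9 ± 18.1 CPM (SD, n = 2 each), and the log2 fold change was -1.32 ± 0.41 (SE). Mean counts per kb were 62.0 for NT5DC4 and 8.37 for CKAP2L, and CKAP2L was the row of the 10 nearest the olfactory receptor background. It stood at 3.59 and 0.788 times that of the same library in the siEZH2 libraries and at 3.79 and 2.21 times in the siCTRL libraries, so that in siEZH2 replicate 2 it lay below the background.

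CDC25C and FAM53C, the head-to-head pair, were the most alike in mean counts per kb over all libraries. In the siCTRL libraries alone the mean log2 ratio per base was -0.26 for FAM53C over CDC25C and nearer to equal, -0.18, for ADCY3 over CENPO. CDC25C held 86 and 96 counts in the siEZH2 libraries and 98 and 114 in the siCTRL libraries. The groups did not overlap but nearly met, and the scaled levels were 12.1 ± 0.294 against 19.1 ± 1.78 CPM (SD, n = 2 each), and the log2 fold change was -0.66 ± 0.45 (SE). FAM53C held 95 and 118 counts in the siEZH2 libraries, against 163 and 216 in the siCTRL libraries. It had 14.1 ± 0.721 against 33.9 ± 0.0272 CPM (SD, n = 2 each), and the log2 fold change was -1.27 ± 0.42 (SE). Mean counts per kb were 29.6 for CDC25C and 21.0 for FAM53C, so here the facing row was the less dense. FAM53C stood at 2.90 and 2.67 times the olfactory receptor background in the siEZH2 libraries and at 17.7 and 9.75 times in the siCTRL libraries. For CDC25C the values were 5.57 and 4.60 times in the siEZH2 libraries and 22.6 and 10.9 times in the siCTRL libraries.

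CENPO and ADCY3 were the pair with high counts in both rows, and they differed most clearly from each other. CENPO held 2934 and 2972 counts in the siEZH2 libraries and 3421 and 2916 in the siCTRL libraries. These counts overlap, and the scaled levels were 393 ± 36.5 CPM in siEZH2 and 585 ± 180.0 CPM in siCTRL libraries (SD, n = 2 each), and the log2 fold change was -0.57 ± 0.43 (SE). ADCY3 held 1415 and 1532 counts in the siEZH2 libraries, against 3321 and 3226 in the siCTRL libraries. Its level was 196 ± 8.99 against 599 ± 131 CPM (SD, n = 2 each), which is 0.327 times the siCTRL level, or -1.61 ± 0.43 (SE) as a log2 fold change. Counts per kb were of the same order in the 2 rows, 555 for CENPO and 368 for ADCY3.

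SMC4 and TRIM59 both had lower counts in the siEZH2 libraries, at very different levels. SMC4 held 104 and 118 counts in the siEZH2 libraries, against 166 and 171 in the siCTRL libraries, or 14.7 ± 0.188 against 30.7 ± 5.46 CPM (SD, n = 2 each). Its log2 fold change of -1.06 (standard error 0.43) was the most negative of the mitosis rows. TRIM59 held 4104 and 5185 counts in the siEZH2 libraries, against 10781 and 8554 in the siCTRL libraries. It had 614 ± 38.8 against 1793 ± 638 CPM (SD, n = 2 each), and the log2 fold change was -1.55 ± 0.47 (SE). Mean counts per kb were 915 for TRIM59, the highest of the 10 rows, and 17.1 for SMC4. In the siEZH2 libraries SMC4 stood at 2.75 and 2.30 times the olfactory receptor background of the same library. In the siCTRL libraries it stood at 15.6 and 6.67 times that background. IFT80, which faces SMC4 at its other end, held 242 and 434 counts in the siEZH2 libraries, against 670 and 838 in the siCTRL libraries.

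After scaling, the siEZH2 libraries were both below the siCTRL libraries for 9 of the 10 rows, all but CKAP2L. The same held for 22.9% of all tested rows, and for 52.2%, 74.2% and 78.5% of rows of 100 to 200, 200 to 1000 and 1000 counts or more. No member had both siEZH2 libraries above, against 31.4% of all tested rows. In the deposited counts before any scaling both siEZH2 libraries were lower for 7 of the 10 rows, the 5 facing rows with CDC25C and SMC4, and for 12.8% of all tested rows, with the opposite order in 0 of the 10 and 40.4% of all. These shares over all rows were not split by count class, and after scaling the share of lower rows rose with the count class. The facing rows together held 6435 and 7499 counts in the siEZH2 libraries, against 15722 and 13232 in the siCTRL libraries. The mitosis rows together held 3270 and 3247 in the siEZH2 libraries, against 3759 and 3305 in the siCTRL libraries.

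Scaling and count level moved with these values. When library sizes were scaled on the better-covered rows alone (200 counts or more in at least 2 libraries), the median of all tested rows was 0.88 in place of 0.22. Under that scaling the 5 facing rows kept negative values, from -0.89 to -0.57, whereas CDC25C had 0.04, CENPO 0.17 and CKAP2L 1.10, with HMMR at -0.09 and SMC4 at -0.34. Relative to the median of all tested rows under the same scaling, ADCY3 stood at -1.83 and -1.77 and CENPO at -0.79 and -0.71. Rows with many counts had negative fold changes in general. The median was -0.71 over 959 rows with 1000 counts or more, -0.75 over 1928 rows with 200 to 1000, -0.52 over 1679 rows with 100 to 200, 0.15 over 3912 rows with 50 to 100 and 0.49 over 8187 rows with 20 to 50. Set beside its own class, each of the 5 facing rows lay lower, from a difference of -0.57 for HMMR-AS1 and NT5DC4 to -0.90 for ADCY3. Among the mitosis rows HMMR differed from its class median by -0.90, CDC25C by -0.82 and SMC4 by -0.54. CKAP2L lay at its class median and CENPO 0.14 above it. CDC25C, HMMR and CKAP2L average 98.5, 50.5 and 45.8 counts, close to the class limits, and against the class across the nearest limit they differed by -0.14, -1.24 and 0.33, so the value for CDC25C rests on where the limit was set.

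**Figure D3:**
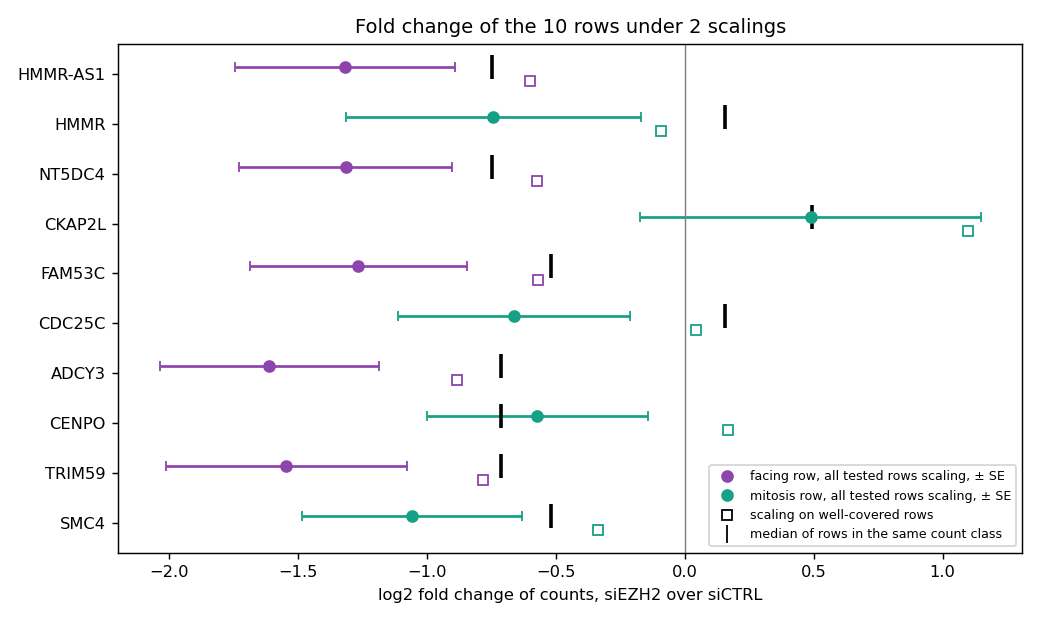
Log2 fold change of siEZH2 over siCTRL for the 10 rows, with filled circles for the scaling on all tested rows and its standard error (n = 2 each), open squares for the scaling on well-covered rows, and bars for the median of rows in the same count class. The facing rows lie left of their bars in all 5 pairs, and the squares of CDC25C, CENPO and CKAP2L lie right of 0.

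The ratio of the 2 rows of a pair within 1 library does not depend on how libraries are scaled. Background counts still enter it, most for rows with few counts per kb. No background was subtracted, and per kb it was higher in the siEZH2 libraries (4.64 and 6.27) than in the siCTRL libraries (1.30 and 3.14). In all 5 pairs the log2 ratio of the facing row over the mitosis row was lower in both siEZH2 libraries than in both siCTRL libraries. For ADCY3 over CENPO it was -1.05 and -0.96 in the siEZH2 libraries, against -0.04 and 0.15 in the siCTRL libraries. The difference of the means was -1.06, and it ran from -1.15 to -0.96 when each library was left out in turn. In linear terms the ADCY3 row held 0.482 and 0.515 times the counts of the CENPO row in the siEZH2 libraries, against 0.971 and 1.11 times in the siCTRL libraries.

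FAM53C over CDC25C gave log2 ratios of 0.14 and 0.30 in the siEZH2 libraries, against 0.73 and 0.92 in the siCTRL libraries, a difference of -0.61. TRIM59 over SMC4 gave 5.30 and 5.45 in the siEZH2 libraries, against 6.02 and 5.64 in the siCTRL libraries, a difference of -0.46. These 2 differences kept their sign with each library left out, from -0.70 to -0.51 and from -0.64 to -0.27. Leaving out a library does not remove background, and SMC4 and FAM53C lay near it in the siEZH2 libraries. HMMR-AS1 over HMMR gave 3.55 and 3.74 in the siEZH2 libraries, against 4.53 and 3.80 in the siCTRL libraries. The groups were almost touching, and the difference of -0.52 became -0.15 without siCTRL replicate 1. NT5DC4 over CKAP2L gave 0.92 and 2.88 in the siEZH2 libraries, against 3.71 and 3.03 in the siCTRL libraries. Its difference of -1.47 was the largest of the 5 and became -0.49 without siEZH2 replicate 1, the library with the high CKAP2L count. With 2 libraries in each group an exact two-sided permutation test of 1 ratio cannot give a p below 0.333, so none is reported.

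Such a shift was common among opposite-strand rows. Over the 2010 pairs of tested rows that share at least 100 exonic bases, the log2 ratio of the row with more counts over the other had a median difference of -0.24 between groups, with quartiles of -0.94 and 0.36. It was lower in both siEZH2 libraries for 31.3% of those pairs and higher in both for 14.6%. Read the same way, 4 of the 5 pairs were lower and 1 was higher, since CENPO is the row with more counts in its pair. Read this way, the differences for ADCY3 with CENPO and for NT5DC4 with CKAP2L lie outside these quartiles and the other 3 within them.

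**Figure D4:**
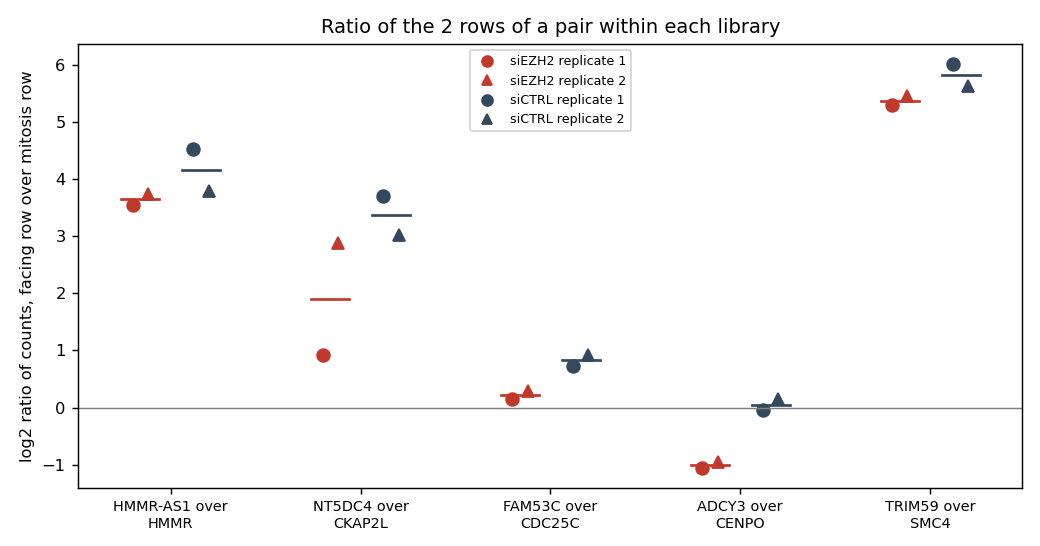
Log2 ratio of counts under the facing row over counts under the mitosis row in each library, with 1 point per library and a line at the mean of each group. The siEZH2 points lie below the siCTRL points in the 5 pairs, with a gap near 0 for HMMR and the widest spread for CKAP2L.

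The rows of other mitosis genes most like the best-covered row of each pair were sought by the root mean square difference of centred log2 levels over the 4 libraries, among 146 tested rows of the mitosis lists. NCAPD2, a non-SMC subunit of condensin I, was nearest to both NT5DC4 (0.0625) and TRIM59 (0.131). It held 955 and 1199 counts in the siEZH2 libraries, against 2014 and 1920 in the siCTRL libraries. ANAPC2, a cullin subunit of the anaphase-promoting complex, was nearest to HMMR-AS1 (0.0910), with 821 and 625 counts in the siEZH2 libraries and 1294 and 1061 in the siCTRL libraries. ITGB3BP, which encodes the inner kinetochore protein CENP-R, was nearest to CENPO (0.0610), and SMC4 was nearest to FAM53C (0.172). The median difference over the rows compared ran from 0.554 for CENPO to 0.808 for TRIM59. With 4 libraries many rows share such a pattern.

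Of the genes around SMC4, the condensin subunits went different ways. All 8 were tested, 5 had negative and 3 positive log2 fold changes, 0 were called by edgeR, and the median was -0.32. NCAPD2 had -1.34 with a standard error of 0.41, NCAPH2 -0.61 and NCAPD3 -0.55. SMC2, the partner of SMC4 in the same ring, had -0.09 on 61 and 29 counts in the siEZH2 libraries and 28 and 46 in the siCTRL libraries, while NCAPG2 had 0.76. Under the scaling on well-covered rows the median was 0.36. Cohesin and SMC5/6 genes, a related family of rings, had 10 positive and 7 negative rows of 17 and a median of 0.51, with STAG1 at -1.04. With each library left out in turn that median was lower, from 0.045 to 0.34.

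Inner kinetochore genes, the surroundings of CENPO, had 14 negative and 5 positive rows of 19 tested and a median of -0.57, which was 0.17 under the scaling on well-covered rows. CENPO itself was the member with most counts. Outer kinetochore and spindle checkpoint genes had 14 positive and 8 negative rows of 22, with a median of 0.36. SPC24, a subunit of the NDC80 complex and the best-covered row there, had 299 and 160 counts in the siEZH2 libraries, against 461 and 376 in the siCTRL libraries, with log2 fold change -1.31 ± 0.45 (SE). Neither list had a called row.

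Spindle and microtubule genes, which include HMMR and CKAP2L, split almost evenly, with 18 negative and 15 positive rows of 33 and a median of -0.05. NUMA1, which anchors microtubules at the spindle poles, had -0.63. Mitotic entry genes, which include CDC25C, had 18 negative and 5 positive rows of 23 and a median of -0.71, or -0.04 under the scaling on well-covered rows. PKMYT1, a kinase that opposes CDC25C by phosphorylating CDK1, held 2504 and 2479 counts in the siEZH2 libraries, against 4338 and 4322 in the siCTRL libraries, with log2 fold change -1.25 ± 0.43 (SE). Its row faces PAQR4 on the other strand. MYBL2, the transcription factor that joins MuvB to activate late cell cycle genes, was named after its values were seen. It held 48 and 92 counts in the siEZH2 libraries, against 177 and 284 in the siCTRL libraries, with log2 fold change -2.15 ± 0.45 (SE).

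Chromosomal passenger and anaphase-promoting complex genes had 18 negative and 7 positive rows of 25 and a median of -0.72, which was 0.01 under the scaling on well-covered rows. ANAPC11, its RING subunit, held 1285 and 2037 counts in the siEZH2 libraries, against 3235 and 3198 in the siCTRL libraries. Over all 7 mitosis lists 147 of 154 genes were tested, 88 negative and 59 positive, with 0 called and a median of -0.33. The siEZH2 libraries were both below the siCTRL libraries for 58 of them and both above for 26, against 22.9% and 31.4% of all tested rows. The families of the facing genes had 8 positive and 8 negative rows of 16 and a median of 0.06, with ADCY3, NT5DC4 and FAM53C among the negative ones. These list medians are descriptions and were set against no other lists.

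**Figure D5:**
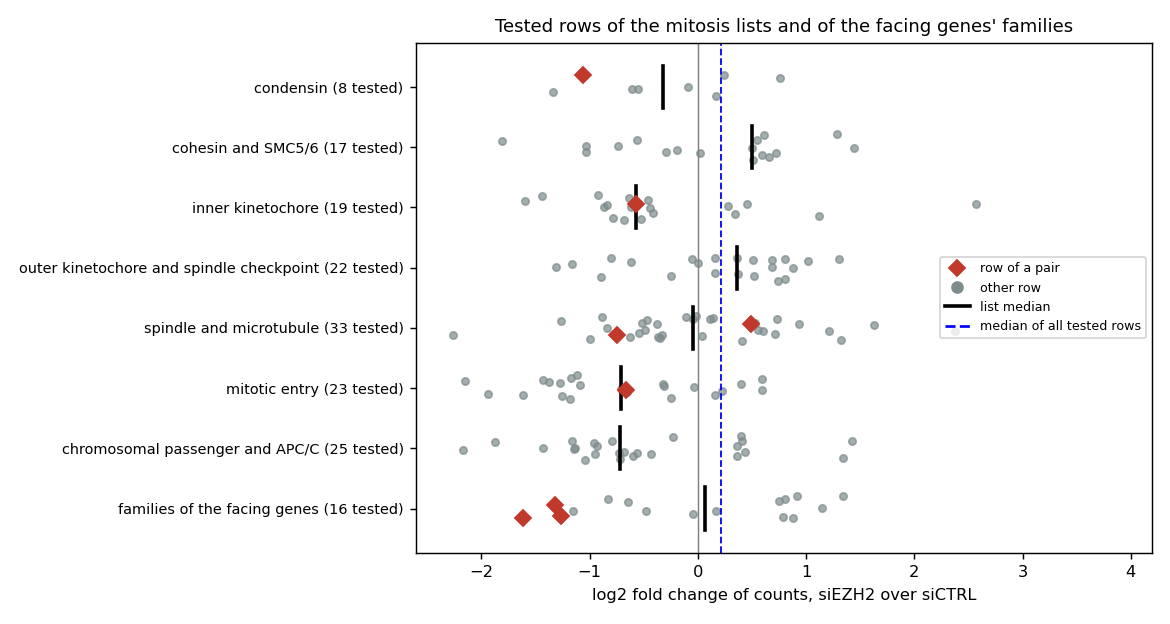
Log2 fold change of siEZH2 over siCTRL for each tested row of 7 mitosis lists and of the families of the facing genes, with red diamonds for rows of the 5 pairs, black bars for list medians and a dashed line at the median of all tested rows, 0.22. SMC4 lies left of the condensin median of -0.32. ADCY3, NT5DC4 and FAM53C lie left of their families' median of 0.06, as do their better-covered relatives NT5DC2, ADCY7 and ADCY9.

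Most facing rows of other mitosis genes also had negative values. Besides the 5 members, 34 genes of the mitosis lists share at least 100 exonic bases with a row on the opposite strand, the one sharing most being taken where there were several. The facing row had more counts in 17 of them (50%, exact 95% interval 32.4% to 67.6%), and its fold change was the more negative in 20. The facing row was negative in 25 of the 34, in 21 of the 21 where it held at least 200 counts and in 12 of the 12 that shared at least 500 bases, against 5 of 5 in the pairs. Well-covered rows were nearly all negative in any case, as given above by count class. Median log2 fold changes were -0.86 for these facing rows and -0.81 for the mitosis rows. In the 5 pairs the facing row had more counts in 4 and the more negative fold change in 5, a contrast that the choice of the pairs may have set. Both kinds of pair were found among the others, and the following were named after their values were seen. PRC1, a microtubule bundling protein of the central spindle, averaged 26.2 counts and PRC1-AS1, which faces it, 5635, with log2 fold changes of -2.26 and -1.49. FOXM1, a transcription factor of G2 and M phase genes, averaged 156 counts and ITFG2, which faces it, 5777, with -1.94 and -1.31. CENPN of the inner kinetochore went the other way, with 2078 counts on average against 59.5 under CMC2, and log2 fold changes of -0.78 and 0.51.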

How the data were processed

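RNA sequencing counts of 4 C4-2 libraries were used. Per the file headers, the deposited table gives for each gene row a length in bases and the raw counts of each library, neither normalised nor pooled. The submitters' processing notes list the tools featureCounts 2.0.3, STAR 2.7.10b, limma and edgeR and the build GRCh38, without saying what each did; no source used here gives the annotation release or strand setting. Groups and replicate numbers came from the sample titles. The members, lists and tests were chosen with earlier results of these data known. Of 59385 rows, 24431 passed filterByExpr and were tested with edgeR 4.0.16 (TMM scaling, glmQLFit and glmQLFTest, no covariate, R 4.3.3); the Benjamini-Hochberg adjustment ran over all of these. Each standard error is the fold change divided by the square root of F, and the procedure was tested on simulated data. P-values measure the spread between these libraries, which may be technical. Of counts from 1 to 20, between 65.1% and 73.8% per library were even numbers. A count of 1 may therefore not stand for 1 independent read. The exact interval for a share of genes takes genes as independent and covers no spread between libraries. Pair ratios used log2 after adding 0.5 to each count. Rows were placed on GENCODE release 29 by symbols that occur once (37665 rows), and promoter windows came from RefSeq on GRCh38.p14. Genes named were the 10 rows, EZH2, MT-ND6, MT-CO1, the best-covered tested row of each list, the row most like each pair's best-covered row, and others marked as chosen after their values were seen or as neighbours and subunits used for context. Alternatives were other scalings (RLE, upper quartile, well-covered rows), DESeq2 1.42.0, limma-voom (limma 3.58.1), other count filters, a replicate block, and leaving out each library. Plots used matplotlib 3.10.9 under Python 3.11.15, with scipy 1.17.1 for intervals, and tables pandas 2.3.3.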

Additional observations from a re-analysis of the deposited data

How the results depend on the processing

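No row was called higher or lower by edgeR with TMM, upper-quartile or well-covered-row factors or with at least 50 counts in 2 libraries. Rows called higher and lower numbered 1 and 12 with RLE factors, 10 and 858 with DESeq2, 11 and 334 with limma-voom, and 12 and 68 with no low-count filter. Leaving out 1 library gave 0 to 61 higher and 1 to 173 lower rows, most without siEZH2 replicate 1, and 0 of the 10 members were called. Of the members, 5 were called by DESeq2 and 2 by limma-voom. The replicate numbers were not taken to pair libraries, since the deviations of same-numbered libraries from their group means correlated at 0.05 across rows. With the replicate block 248 rows were called higher and 1079 lower, among them the 4 facing rows HMMR-AS1, NT5DC4, ADCY3 and TRIM59. Since the members were chosen with their counts known, none of these calls is a test of them. The 5 facing rows kept negative fold changes under every alternative run. The sign changed for CKAP2L without siEZH2 replicate 1, and for CDC25C and CENPO with factors from well-covered rows, which raised the median of all tested rows by 0.66; relative to that median CDC25C stood at -0.88 with TMM and -0.84 with these factors, and CENPO at -0.79 and -0.71. Adding 5 counts in place of 0.5 gave pair ratio differences of -1.41 to -0.47, against -1.47 to -0.46. Counting per base cannot change them. Without 1 library they kept their sign, but that of HMMR-AS1 over HMMR ran from -0.89 to -0.15 and that of NT5DC4 over CKAP2L from -2.44 to -0.49.

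List medians moved with the scaling. Factors from well-covered rows raised each by 0.62 to 0.74, close to the 0.66 over all tested rows, as a common offset. With these factors they were 0.36 for condensin, 1.12 for cohesin, 0.17 for inner and 0.98 for outer kinetochore, 0.63 for spindle, -0.037 for mitotic entry, 0.0070 for passenger and anaphase-promoting complex genes, 0.76 for the facing genes' families and 0.33 over all mitosis lists. With at least 50 counts in 2 libraries, where fewer rows are tested, condensin had -0.17, cohesin 0.86, mitotic entry -0.33, passenger genes -0.40, the families -0.15 and all mitosis lists -0.20. Leaving out 1 library gave -0.67 to -0.34 for condensin, 0.045 to 0.34 for cohesin, -0.90 to -0.29 for inner and -0.0033 to 0.70 for outer kinetochore, -0.41 to 0.22 for spindle, -1.03 to -0.66 for mitotic entry, -0.95 to -0.61 for passenger genes, 0.041 to 0.26 for the families and -0.52 to -0.20 over all mitosis lists. The medians with all libraries, -0.32 for condensin and 0.51 for cohesin, lie above their ranges. Of 39 mitosis genes with a facing row, members included, 21 had more counts in that row. With at least 500 shared bases it was 9 of 14, since fewer genes share that many. Depth limits HMMR and CKAP2L most, with means of 50.5 and 45.8 counts. In the siEZH2 libraries SMC4 and FAM53C also lay near the olfactory receptor background, at 2.75 and 2.30 times and at 2.90 and 2.67 times.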
